A study of Sus scrofa with 6 samples.

Results

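Proteins that bring SIN3A to chromatin, sit with it in its complex or modify it are encoded by a panel of 10 genes. The genes were picked by name, with earlier results of these data known. The rows of the deposited table whose gene name equalled a listed symbol gave 8 of the 10, out of 17678 genes in all, namely REST, FOXK1, FOXK2, KLF10, KLF11, PHF12, MORF4L1 and BRMS1L. OGT was listed without a name and was found by its Ensembl identifier, ENSSSCG00000012403, so that 9 measured genes are described. FAM60A was matched neither by name nor by identifier and is not analysed here. Messenger RNA was sequenced from porcine 2-cell embryos collected 32 h after parthenogenetic activation. Oocytes had been injected with a non-specific siRNA (NC, 3 libraries) or with 3 siRNAs against SIN3A (KD, 3 libraries), and each library was made from 20 embryos. The oocytes came from slaughterhouse ovaries of crossbred pigs and were matured in culture, and all embryos of both groups were parthenotes that carry no paternal genome.

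SIN3A is a scaffold without a DNA-binding domain of its own. It reaches its targets through sequence-specific factors that dock onto its paired amphipathic helix domains, and it then holds the deacetylases HDAC1 and HDAC2 next to the promoter. REST does this at neuronal genes, KLF10 and KLF11 at GC-rich promoters, and the forkhead proteins FOXK1 and FOXK2 at genes of metabolism and autophagy. PHF12 and the chromodomain protein MORF4L1, also called MRG15, form a module that places a SIN3 complex over transcribed chromatin. BRMS1L is a complex subunit related to BRMS1, and OGT is the enzyme that attaches O-linked N-acetylglucosamine to nuclear proteins and binds SIN3A. In a 2-cell pig embryo, before the major activation of the embryonic genome, most of these transcripts would be stored maternal RNA, and an RNA level does not give the level of the protein.

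The values are read estimates that the authors normalized between libraries, and they are not divided by transcript length. Each library summed to between 11084900 and 11500700. Depth, estimated in reads from the step between low values, was 7800000 to 12900000 for NC libraries and 10200000 to 15800000 for KD libraries. The 9 oocyte and embryo markers tested had log2 fold changes of -0.030 to 0.13, with GDF9 at 4688 in NC and 4605 in KD and ZP3 at 419 and 415, and BMP15 as the farthest from 0 at 20209 and 22180. Of the 12 cumulus and granulosa cell markers 10 were found, and 3 of these passed the minimum mean value of 10. The sum of the 10 was 803 to 968 in NC and 766 to 893 in KD, most of it from VCAN, whose part in the results was not tested. Of the 7 below the minimum, 5 had a lower and 2 a higher mean in KD. SIN3A itself fell from 34576 ± 2534 to 2841 ± 1591 (SD, n = 3 each), which left 8.22% of the NC mean (limma adjusted p = 8.45e-06). This call was lost without the trend of the variance with the mean, where the adjusted p from limma was 0.423.

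The start regions of most of these genes held GC boxes, the GGGCGG element that Sp and KLF proteins can bind. In windows from 250 bases before to 50 bases after the RefSeq start of each gene (Sscrofa11.1), 8 of the 9 measured genes had at least 1 GGGCGG on either strand, against 50.6% of 19505 such windows in the genome. Of 2 other short elements searched in the same way, CACCC was in 4 of the 9 windows against 59.3% of all, and CCAAT was in 5 against 35.4%. The GC content of these windows ranged from 52.7% for OGT to 88.3% for FOXK1, and the median of all windows was 58.7%. Stretches of 30 bases upstream of the start are shown for the 3 genes whose NC and KD values did not overlap (REST, KLF10 and OGT) and for KLF11, the relative of KLF10. Capitals mark the GGGCGG, or CCGCCC where the element lies on the other strand, and each stretch is read along the strand of its gene.
REST, chr8:56035121-56035150, plus strand: gcgggcgcgcgcGGGCGGcgagggggcgtg
KLF10, chr4:34430059-34430088, plus strand: cgatagcaggctCCGCCCccaccccctccc
KLF11, chr3:126429891-126429920, minus strand: cctccggtcgccCCGCCCctcccacgccgc
OGT, chrX:57520908-57520937, plus strand: acttggacgctcCCGCCCcagacagtgccc
The element began 49 bases before the start in REST, 61 in KLF10, 18 in KLF11 and 171 in OGT. REST had 4 such matches in its window, overlapping ones included, KLF11 had 7, and KLF10 and OGT had 1 each. BRMS1L had none. A match describes the sequence only, and no binding was measured.

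The transcripts of these genes spanned a wide range of abundance in NC embryos. Levels were compared between genes only after division by the length of the longest RefSeq mRNA, in normalized abundance per kb. MORF4L1 was the most abundant, with 1959 ± 142 per kb (SD, n = 3), higher than 98.2% of the 10221 tested genes with a RefSeq length. FOXK2 followed with 844 ± 105 per kb, PHF12 with 329 ± 18.0 and FOXK1 with 164 ± 30.3. KLF11 had 89.7 ± 12.4 per kb and OGT 51.5 ± 6.02, which places both around the middle of all genes, whose median was 61.3. BRMS1L had 27.5 ± 3.66, and 34.9% of genes lay below it. REST had 7.38 ± 0.776 per kb and KLF10 had 5.14 ± 1.60, so that only 13.7% and 8.98% of genes lay below them. The 3 NC values of each gene lay above those of the next gene in this order, and the closest neighbours were REST and KLF10, whose means differed by 1.44 times. MORF4L1 and FOXK2 together made up 78.4% to 81.3% of the summed abundance per kb of the 9 genes in each of the 6 libraries. The order of these leading genes depended on the length used: per kb of coding sequence FOXK2 stood at 3707 and MORF4L1 at 3494.

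Set against SIN3A in the same library, every one of these transcripts was the scarcer in NC embryos. SIN3A itself, at 6060 ± 444 per kb in NC (SD, n = 3), was higher than 99.8% of the 10221 tested genes with a RefSeq length. Nearly every gene is therefore scarcer than SIN3A by this measure. MORF4L1 reached 31.0%, 34.4% and 31.6% of the SIN3A abundance per kb in NC replicates 1 to 3, and FOXK2 reached 14.1% ± 2.67 (SD, n = 3). REST stood at 0.107% to 0.139% and KLF10 at 0.0604% to 0.120%. In KD embryos the order turned for the most abundant genes. MORF4L1 then stood at 347%, 983% and 226% of SIN3A in KD replicates 1 to 3 and FOXK2 at 150%, 459% and 114%, so that both exceeded SIN3A in 3 of 3 KD libraries. PHF12 exceeded SIN3A in KD replicate 2 alone, with 198% against 54.8% and 43.5% in the other two. FOXK1 came to 93.0% in KD replicate 2, and the other genes stayed at or below 54.7% in every KD library. Per kb of coding sequence FOXK2 stood at 41.4% ± 7.86 of SIN3A in NC (SD, n = 3), and in KD replicate 2 FOXK1 stood at 221% and KLF11 at 97.4%. MORF4L1 and FOXK2 lay below SIN3A in all NC and above it in all KD libraries with each of the 3 lengths tried. Per kb of the longest mRNA, the summed abundance of the 9 genes was 3391 to 3627 in NC and 3148 to 3503 in KD, while SIN3A per kb went from 5679 to 6548 in NC to 189 to 731 in KD. The ratios therefore moved with SIN3A, the target of the siRNAs. Any gene of unchanged abundance between the NC and KD levels of SIN3A would cross it in the same way. The crossing thus follows from the knockdown, and the share of all genes that crossed was not counted.

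**Figure D1:**
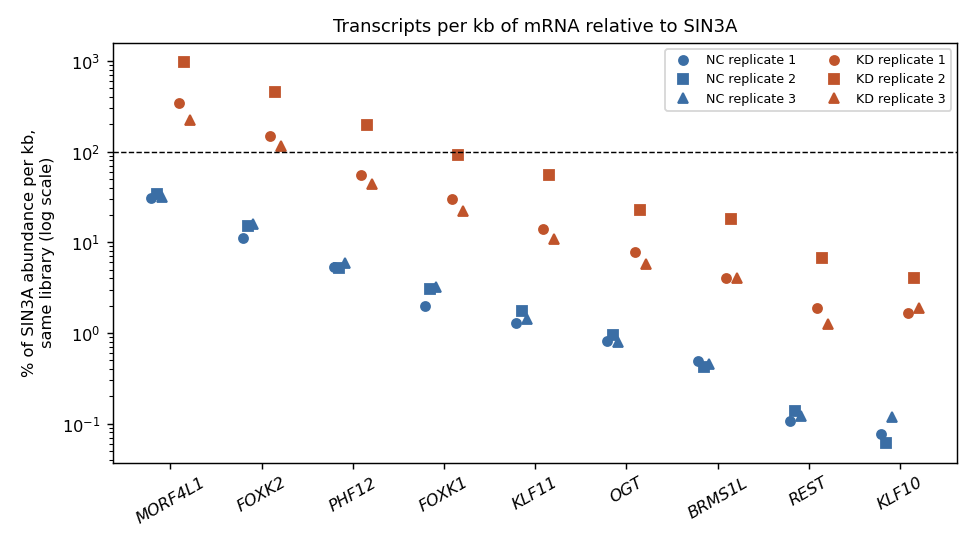
Abundance per kb of mRNA of each gene as a percentage of that of SIN3A in the same library (log axis), for 3 NC and 3 KD libraries; each point is a library and the dashed line marks 100%. In NC all points lie below the line, and in KD those of MORF4L1 and FOXK2 lie above it in all 3 libraries, with KD replicate 2, where SIN3A was lowest, the highest for each gene.

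None of the 9 genes differed between KD and NC embryos at an adjusted p of 0.05 from limma over 11986 genes, where 19 genes (0.159%) passed, 0.0584% as higher and 0.1% as lower in KD. At an unadjusted p of 0.05, 2 of the 9 genes passed, REST and KLF10, against 4.61% of all genes tested. The 3 KD values lay all above the 3 NC values in REST and KLF10, as in 4.85% of all genes, and all below them in OGT, as in 4.94%. In either direction 9.79% of all genes had groups that did not overlap. The median log2 fold change of the 9 genes was 0.027, and that of all genes tested was 0.0026. In a bulk sample, a difference in the number of intact cells and one in the RNA per cell cannot be told apart. The replicates are described as independent, but the sources used here do not say whether they came from separate collections of oocytes. The limma p-values rest on the spread between these libraries, moderated by a variance trend over all genes.

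**Figure D2:**
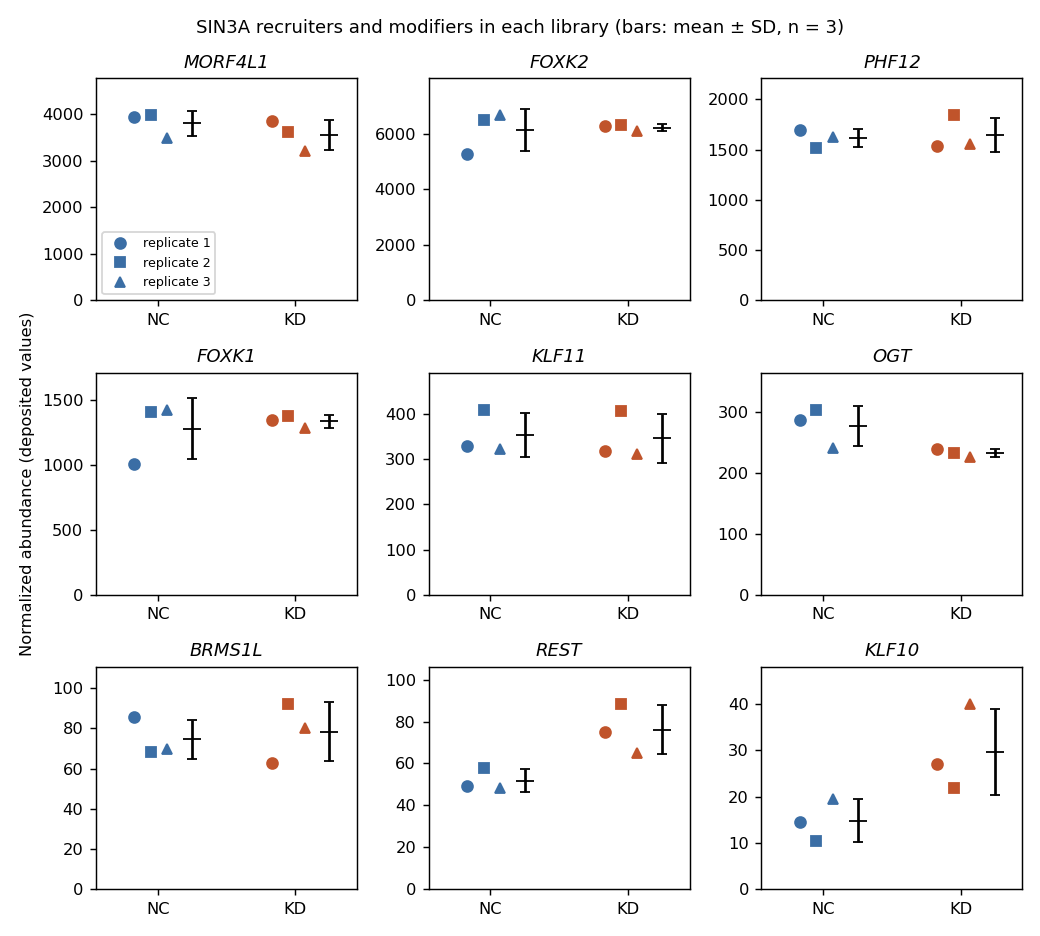
Normalized abundance of the 9 genes in each library, ordered by abundance per kb; symbols mark replicates 1 to 3 and the bars beside them the mean ± SD (n = 3). The KD points lie above all NC points for REST and KLF10 and below them for OGT, and the groups overlap for the other 6 genes.

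REST is the repressor that silences neuronal genes outside the nervous system. In the order of replicates 1 to 3, its values were 49.0, 57.9 and 48.1 in NC and 75.0, 88.5 and 64.9 in KD. Every KD library was above every NC library, and in both groups replicate 2 had the highest value. The mean was 51.7 ± 5.44 in NC and 76.1 ± 11.8 in KD (SD, n = 3 in either group). On the log2(value + 1) scale the difference was 0.54 (95% confidence interval 0.045 to 1.04, standard error 0.24, limma adjusted p = 0.997). By the exact permutation test, two-sided, p was 0.1, below which 3 libraries against 3 cannot go. These values rest on an estimated 40 to 124 reads per library, for which counting alone gives a coefficient of variation of 14.9% in NC, and 10.5% was observed. REST (ENSSSCG00000023357) lies on chromosome 8 from 56035182 to 56061140 in Sscrofa11.1. RefSeq places 2 other gene models, known here by LOC symbols only, on the same strand, and they overlap it by 12861 and 311 bases. These overlaps count whole gene spans, introns included, and whether exons or reads were shared was not tested.

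KLF10, a Krüppel-like factor first described as an early gene of the response to TGF-beta, was the scarcest of the 9 transcripts. The NC libraries, replicates 1 to 3, held 14.5, 10.3 and 19.5, and the KD libraries held 27.0, 21.8 and 40.1. The groups did not overlap, but the highest NC value and the lowest KD value lay 2.30 apart, and replicate 2 was lowest and replicate 3 highest in both groups. The mean was 14.8 ± 4.61 in NC and 29.6 ± 9.39 in KD (SD, n = 3 in either group). The log2 difference was 0.96 (95% confidence interval 0.099 to 1.81, standard error 0.41, limma adjusted p = 0.997), and the exact permutation p was again at its minimum of 0.1. The estimated reads per library were 7 to 36, and the coefficient of variation in NC was 31.2%, where counting alone gives 26.8%. KLF10 (ENSSSCG00000027480) lies on chromosome 4 from 34430132 to 34435990.

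KLF11 shares with KLF10 a zinc finger DNA-binding domain and a SIN3-interaction domain. KLF11 (ENSSSCG00000038643, chromosome 3 from 126419011 to 126429890) had 329, 410 and 322 in NC and 319, 408 and 312 in KD. Each KD value was within 10.6 of the NC value of the same number, and replicate 2 stood above the other two in both groups. The log2 fold change was -0.032 (95% confidence interval -0.34 to 0.28, standard error 0.15, limma adjusted p = 0.997), and its sign turned when NC replicate 2 was left out, to 0.079.

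FOXK1 and FOXK2 are forkhead factors that bind SIN3A and also the deubiquitinase BAP1. FOXK2 (ENSSSCG00000017125, chromosome 12 from 560848 to 615646) had 5261, 6491 and 6664 in NC and 6269, 6311 and 6086 in KD. FOXK1 (ENSSSCG00000007576, chromosome 3 from 3556139 to 3621150) had 1006, 1407 and 1425 in NC and 1344, 1377 and 1284 in KD. In both genes NC replicate 1 was the lowest of the 6 libraries, and the other 5 lay close together. The spread in NC, with a coefficient of variation of 18.5% for FOXK1 and 12.5% for FOXK2, was far above the 2.97% and 1.35% that counting gives at their depth. The log2 fold changes were 0.078 for FOXK1 (95% confidence interval -0.18 to 0.34) and 0.027 for FOXK2 (-0.17 to 0.23), and for both the limma adjusted p was 0.997. Without NC replicate 1 both turned, to -0.086 and -0.080. HCFC1, a partner of OGT and of the FOXK and BAP1 complex, had the same low library, with 6010 in NC replicate 1 and 8012 to 8678 in the other 5.

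PHF12 (ENSSSCG00000017779, chromosome 12 from 45129864 to 45174755) carries PHD fingers that read the histone H3 tail. It had 1693, 1518 and 1627 in NC and 1539, 1841 and 1559 in KD, and the groups overlapped. Its log2 fold change was 0.026 (95% confidence interval -0.18 to 0.24, standard error 0.10, limma adjusted p = 0.997). FOXK2 and PHF12 overlap a RefSeq model on the opposite strand by 2357 and 559 bases, counted over whole gene spans, introns included. The sources used here do not state that strand was kept, and whether reads were shared there was not tested. MORF4L1 (ENSSSCG00000001769, chromosome 7 from 48050050 to 48075799), the chromodomain protein, had 3950, 3979 and 3487 in NC and 3861, 3613 and 3216 in KD, and replicate 3 was the lowest in both groups. Its log2 fold change was -0.096 (95% confidence interval -0.29 to 0.10, standard error 0.094, limma adjusted p = 0.997). The subunit BRMS1L (ENSSSCG00000001947, chromosome 7 from 64083286 to 64123852), at 86.0, 68.1 and 69.6 in NC and 62.7, 92.3 and 80.4 in KD, had a log2 fold change of 0.063 with a wider interval, from -0.42 to 0.54 (limma adjusted p = 0.997). Leaving out KD replicate 2, which held the highest value of both PHF12 and BRMS1L, turned their log2 fold changes to -0.057 and -0.062.

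OGT, the only enzyme among these genes and the only one on the X chromosome (57521091 to 57558467), had 287, 303 and 241 in NC and 239, 233 and 226 in KD. All KD values lay below all NC values, but NC replicate 3 and KD replicate 1 were 2.03 apart. The mean was 277 ± 32.4 in NC and 232 ± 6.57 in KD (SD, n = 3 in either group), and the exact permutation p was 0.1. The log2 difference of -0.25 had a 95% confidence interval of -0.55 to 0.057 and a limma adjusted p of 0.997 (unadjusted, 0.104).

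**Figure D3:**
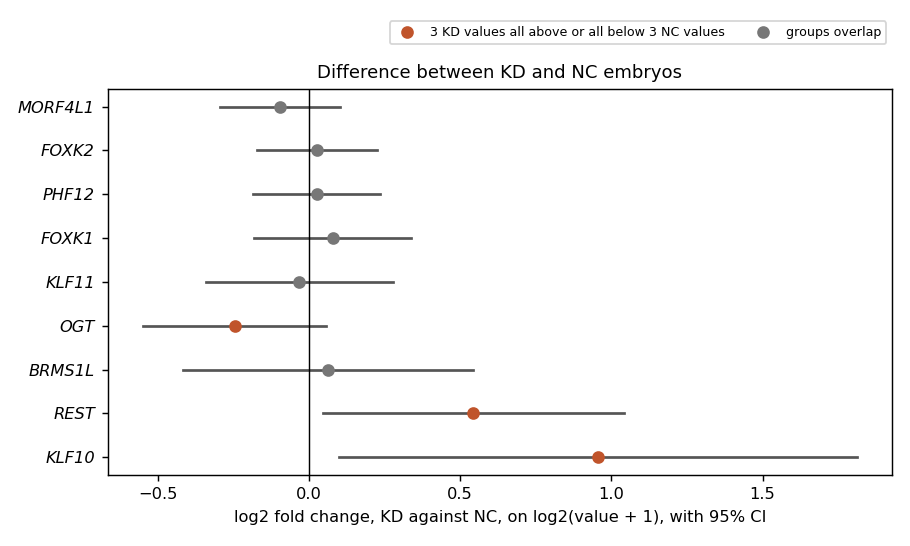
Log2 fold change of KD against NC on the log2(value + 1) scale for the 9 genes, with 95% confidence intervals from limma over 3 libraries per group; coloured points mark genes whose groups did not overlap. The intervals of REST and KLF10 lie above 0 before adjustment over all genes, and those of the other 7 genes include 0.

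The intervals, taken gene by gene and not adjusted over all genes tested, show which changes the limma fit leaves room for. Their standard errors combine the spread of each gene with the variance trend over all genes. Without that trend the standard error was 0.13 rather than 0.094 for FOXK2, and 0.15 rather than 0.24 for REST. For FOXK2, MORF4L1 and PHF12 they ran from 0.816-fold to 1.18-fold at the widest bounds, so a change of the size that SIN3A showed lay far outside them. For BRMS1L the interval was 0.749-fold to 1.46-fold, for REST 1.03-fold to 2.06-fold and for KLF10 1.07-fold to 3.51-fold. Those of REST and KLF10 leave out no change only before adjustment, as the limma adjusted p of both was 0.997. With the trend in the fit, the widest intervals belonged to the 3 genes of lowest abundance. Over all genes tested, the median absolute log2 fold change was 0.23 at means of 10 to 100 and 0.066 at means of at least 1000.

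Ratios of related genes within a library were taken after adding 1 to both values. Apart from this added value they do not depend on the scaling between libraries. It matters for scarce genes: the KLF10 to KLF11 difference was 1.03, 0.99 and 0.70 with 0.1, 1 and 10 added. The 6 pairs were drawn by name from the members and partner lists, which were chosen with earlier results of these data known. In these pairs the difference of the log2 ratio between KD and NC gave exact permutation p values (two-sided) of 0.2 to 0.9. After adjustment over the 6 pairs the lowest was 0.45. FOXK1 to FOXK2 had log2 ratios of -2.39, -2.20 and -2.22 in NC and -2.22, -2.20 and -2.24 in KD, and NC replicate 1, where both genes were low, had the lowest ratio. MORF4L1 to its relative MORF4L2 was 1.38 ± 0.079 in NC and 1.40 ± 0.10 in KD (SD, n = 3 each). KLF10 to KLF11 went from -4.52 ± 0.61 to -3.53 ± 0.62, a difference of 0.99, but KD replicate 2 at -4.16 lay below NC replicate 3 at -3.98. OGT to OGA, the enzyme that removes the sugar again, was -0.35, -0.21 and -0.80 in NC and -0.75, -0.60 and -1.03 in KD, a difference of -0.34 between the means. REST to its corepressor RCOR1 went from -5.78 ± 0.19 to -5.42 ± 0.24, and BRMS1L to BRMS1 from -0.54 ± 0.16 to -0.71 ± 0.18. In all 6 pairs the groups overlapped, those of REST, KLF10 and OGT included. A ratio also carries the spread and any change of its second gene. RCOR1 and BRMS1 themselves were higher in KD without overlap (log2 fold changes 0.18 and 0.24), while the groups of KLF11, OGA, FOXK2 and MORF4L2 overlapped. Why the separation of REST, KLF10 and OGT was not seen in the ratios was not tested.

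**Figure D4:**
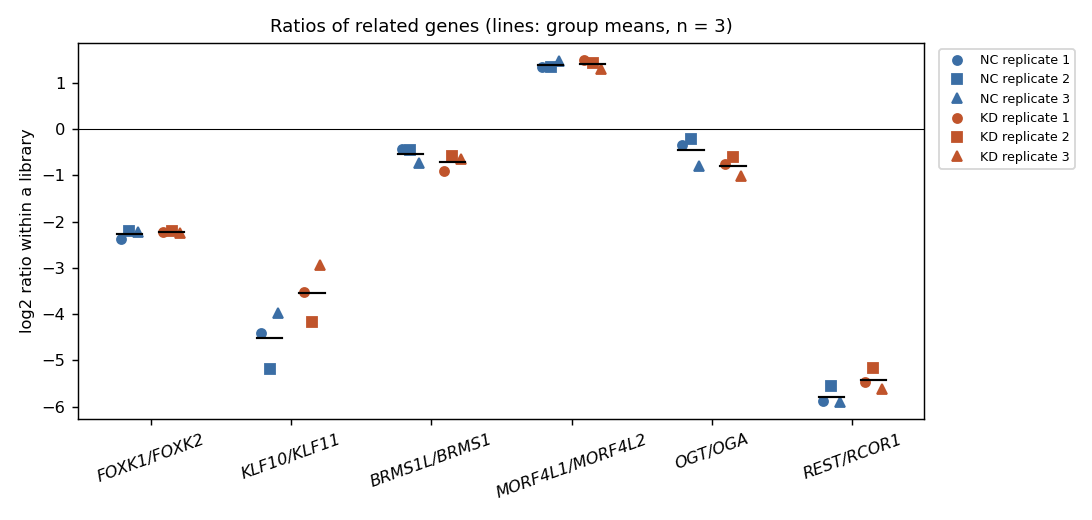
Log2 ratio of related genes within each library for 6 pairs; symbols mark replicates 1 to 3, colours NC and KD, and lines the group means (n = 3). KLF10 to KLF11 shows the largest shift of the means, 0.99, with an SD of 0.61 in NC and 0.62 in KD.

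The partners of these proteins were examined as lists of 73 distinct genes, of which 63 passed the minimum mean of 10. SIN3A, in the list of 16 SIN3 core subunits, was the only one of the 63 that passed an adjusted p of 0.05 from limma. Of the 62 others, 5 (8.06%) had an unadjusted p below 0.05 from limma, against 4.61% of all genes tested. The medians of the lists lay between -0.058 and 0.20 on the log2 scale.

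Among the 15 other core subunits SUDS3 had the largest difference, with 9452, 8491 and 8004 in NC and 10498, 10965 and 9908 in KD, with a log2 difference of 0.28 (limma adjusted p = 0.679). None of the 12 REST corepressor partners passed the adjusted p from limma. RCOR1, the scaffold of the CoREST complex, had 2946, 2783 and 2925 in NC and 3377, 3192 and 3252 in KD, groups that did not overlap (log2 fold change 0.18). USP7, which removes ubiquitin from REST, had the highest mean of this list, not divided by length, with a log2 fold change of 0.019, and EHMT1, a histone H3 lysine 9 methyltransferase, had the largest, 0.18. The 10 genes of the O-GlcNAc list also had 0 called, and 2 had an unadjusted p below 0.05 from limma, against 4.61% of all genes tested. These 2, TET3 and UAP1, went in opposite directions. TET3 had 4189, 5313 and 5250 in NC and 5666, 5859 and 5720 in KD, without overlap (log2 fold change 0.23, limma adjusted p = 0.997). UAP1, which makes the sugar donor of OGT, had 32.4, 34.8 and 35.8 in NC and 14.3, 23.9 and 17.0 in KD, so its groups did not overlap (log2 difference -0.89, limma adjusted p = 0.997). HCFC1, cited above for its low NC replicate 1, had the highest mean of this list, not divided by length.

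The 6 FOXK and BAP1 partners, the 10 genes of the PHF12 and MORF4L1 module and the 6 relatives of the members had 0 genes past the adjusted p from limma and 0 at an unadjusted p below 0.05. MBD5 had the largest difference of the first list (log2 fold change -0.26), EP400 of the second (-0.33) and KLF9 of the third (0.32). Before division by length, TRRAP had the highest mean of the module, with a log2 fold change of 0.10, and MORF4L2 that of the relatives, with -0.12. Of 16 neuronal genes that REST is known to repress, 10 had a mean below 10 and were not tested, and 0 of the other 6 passed the adjusted p from limma, with 1 (VGF) at an unadjusted p below 0.05. VGF, a secreted neuropeptide precursor, was at 14.6, 44.0 and 18.7 in NC and 34.1, 46.2 and 48.1 in KD, and the groups overlapped. Of the 6 tested, 1 had all KD above all NC values, as in 4.85% of all genes. This was BDNF, with 37.0, 20.7 and 34.5 in NC and 46.0, 38.6 and 38.4 in KD (log2 fold change 0.44, limma adjusted p = 0.997). TUBB3, a neuronal tubulin with the highest mean of them before division by length, had 133.5, 184 and 202 in NC and 234, 204 and 188 in KD (log2 fold change 0.28).

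**Figure D5:**
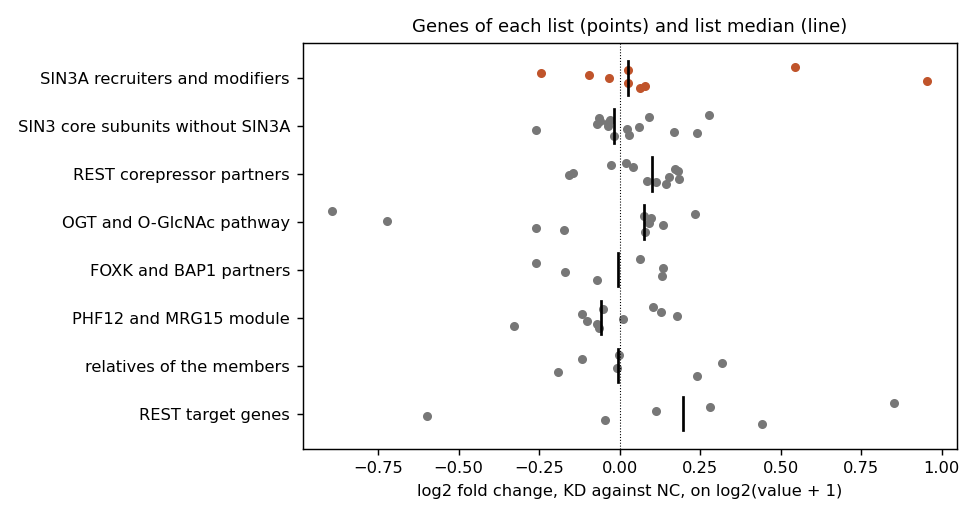
Log2 fold change of KD against NC on the log2(value + 1) scale for every tested gene of the 9 genes (coloured) and of each partner list (grey), with SIN3A left out; vertical lines mark the medians. Of 71 genes, 62 lie within 0.3 of 0, and KLF10, UAP1 and VGF, the 3 farthest out, have mean values of 22.2, 26.4 and 34.3.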

How the data were processed

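Per the labels and the paper's methods, the authors estimated transcript abundance with Salmon 0.14.1 against the pig genome build Sscrofa11.1 and used DESeq2 to normalize and compare NC and KD. The deposited signal values, 1 per gene and library, are neither counts nor scaled to a fixed sum. Low values lay within 0.05 of a whole multiple of 1 read in 53.2% to 70.1% of cases, which did not allow whole reads to be restored, so count models were not used. Genes with a mean of at least 10 entered a limma fit (version 3.58.1, R 4.3.3) of log2(value + 1) with a variance trend and Benjamini-Hochberg adjustment. The procedure was run on simulated data that gave every gene the same extra variance beyond counting. It was therefore not tried on genes that differ in that variance. Fold changes on this scale understate those of low genes. Exact permutation tests, ratios and figures used Python 3.11.15, numpy 2.4.6, pandas 2.3.3 and matplotlib 3.10.9. Gene positions, lengths and sequences come from RefSeq for Sscrofa11.1. Of 3575 genes without a name in the table, 837 were named by identifier. Named genes were the listed members, SIN3A, the partner of each pair, and in each list any called gene, the largest change and the highest mean, with GDF9, ZP3 and the highest cumulus marker as sample checks. SUDS3, BMP15, TET3 and BDNF fall outside this rule, having been picked once their values were known. The members and lists were chosen with earlier results of these data known. Alternatives are given in the closing section. Depth is an estimate, intervals on reads cover counting error only, and the spike-in mRNAs named in the labels were not used here.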

Additional observations from a re-analysis of the deposited data

How the results depend on the processing

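None of the 9 genes passed an adjusted p of 0.05 from limma in any of the 15 alternatives, and their lowest adjusted p was 0.720, for REST without KD replicate 3. REST, KLF10, MORF4L1 and OGT kept their direction in each alternative run, and 8 of 132 comparisons for single genes turned. These were, with 1 library left out, FOXK1 and FOXK2 without NC replicate 1 (-0.086 and -0.080), KLF11 without KD replicate 1 (0.021), KD replicate 3 (0.038) or NC replicate 2 (0.079), PHF12 without KD replicate 2 (-0.057) or NC replicate 2 (-0.017), and BRMS1L without KD replicate 2 (-0.062). Leaving out each library gave ranges of -0.086 to 0.17 for FOXK1, -0.080 to 0.090 for FOXK2, -0.16 to 0.079 for KLF11, -0.057 to 0.072 for PHF12 and -0.062 to 0.21 for BRMS1L. It gave 0.43 to 0.65 for REST, 0.72 to 1.17 for KLF10 and -0.34 to -0.18 for OGT, and -0.068 to 0.072 for the median of the 9 genes. The ratio FOXK1 to FOXK2 ranged from -0.0057 to 0.085 and MORF4L1 to MORF4L2 from -0.023 to 0.079, turning without NC replicate 1 (-0.0057 and -0.0056) and, for the latter, KD replicate 1 (-0.023).

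The count of all genes called was 19, with 11 to 19 when a library was left out, 11 of them without KD replicate 2 and 12 without NC replicate 2 or 3, and 26 with the replicate number as a block. Deviations of same-numbered libraries from their group means had correlations of 0.109, 0.111 and 0.0872, and those with different numbers of -0.083 to -0.021. Each library thus correlated best with its own number, a hint of pairing from the data. No source states a shared batch, so the main fit stayed unpaired as planned, with the block as an alternative. With that block REST had an adjusted p of 0.831, KLF10 of 0.760 and OGT of 0.933, and the block added no call among the 9 genes or the partners. Without the variance trend 0 genes were called, and among the partners 0, and the adjusted p of SIN3A at -3.81 was 0.423. A robust variant of the moderation, chosen after seeing the data, gave SIN3A at -3.81 an adjusted p of 0.469 and 0 partners called. The cause was not tested.

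Per kb of coding sequence the NC abundance was 16.6 for REST, 580 for FOXK1, 3707 for FOXK2, 10.2 for KLF10, 238 for KLF11, 573 for PHF12, 3494 for MORF4L1, 75.1 for BRMS1L and 88.2 for OGT. With the median mRNA length it was 1278 for FOXK2, 361 for PHF12 and 65.2 for OGT. REST, KLF10 and BRMS1L could not be tested at a mean of at least 100. The depth limits what can be said of these 3 genes.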
